A study of Mus musculus with 13 samples.

Results

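The bone marrow common lymphoid progenitors (CLPs) of wild-type (WT) mice were described here from 5 libraries of the 13 in the series, chosen by their genotype label. The other libraries came from 5 Notch1+/- and 3 Notch1+/ΔTAD mice, which carry 1 altered Notch1 allele, and entered no value below. The WT mice were C57BL/6 adults of 6 to 12 weeks with no treatment, and each library held the CLPs of 1 mouse. Cells were sorted as DAPI-, Lin-, Sca1Lo, cKitLo, CD127+, and CD135+, RNA was read from its 3′ ends, and the level of each of 24972 genes was deposited as TPM, the transcripts of a gene in 1000000 of its library after division by transcript length. The labels number the WT libraries 1, 2, 3, 10, and 11, and values by library are given in that order throughout.

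CLPs arise from multipotent progenitors and give rise to B cells, T cells, natural killer (NK) cells, and some dendritic cells. IL-7 and Flt3 ligand act on them through CD127, encoded by Il7r, and CD135, encoded by Flt3. Before a B or T cell fate is fixed they already transcribe parts of the antigen receptor recombination program, such as Dntt, the terminal transferase that adds nucleotides at rearranged junctions. Ly6d, a GPI-anchored surface protein, marks the CLPs that lean toward the B lineage.

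Both of these marker genes were measured in all 5 libraries, which matches the cell label. Dntt (chromosome 19 from 41029275 to 41059525, GRCm38) was at 7459, 3482, 4083, 5007, and 5060.2 TPM. Its mean was 5018 ± 1516 TPM (SD, n = 5), and it ranked between 19 and 53 among all genes of a library. The highest Dntt value exceeded the lowest by 2.14-fold, with an SD of 0.41 on the log2(TPM + 1) scale. Ly6d (chromosome 15 from 74762056 to 74763620, GRCm38) was at 1418, 2559, 1034, 727, and 271 TPM, with a mean of 1202 ± 867 TPM (SD, n = 5). Ly6d was lower than Dntt in each library and more variable, with a 9.44-fold range and an SD of 1.20 on the log2 scale. A bulk value cannot tell a lower share of Ly6d-bearing cells from less RNA per cell.

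Detection was sparse below the highest levels, and this limits every statement on a single low gene. Between 3744 and 4614 genes were above 0 in a library, 3179 to 3855 were at 1 TPM or more, and 137 to 163 were at 1000 TPM or more. Of 7228 genes at 1 TPM or more somewhere, 928 reached that level in all 5 libraries, 793 in 4, 1086 in 3, 1681 in 2, and 2740 in 1. The 928 shared genes are 3.72% of the table and carried 72.2% of the mean TPM. Of genes at 1000 TPM or more in a library, a median of 97.4% were at 1 TPM or more in another library, over the 20 ordered pairs of libraries. At 100 TPM or more this share fell to a median of 69.0% (range, 65.4% to 74.4%), and a median of 27.3% were listed at 0 in the other library. A gene above 100 TPM in 1 mouse could therefore be listed at 0 in another.

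Most values within a library lay above 10 TPM. From 1000 to 1173 genes lay between 100 and 1000 TPM and from 1379 to 1820 between 10 and 100, against 550 to 712 between 1 and 10 and 303 to 742 between 0.1 and 1. The plot of genes by level shows a main peak above 10 TPM with a tail or second shoulder of low values. Among low values, 1 TPM value recurred across genes, together with multiples of it, each matched within 0.05%. This step was 0.745 TPM in library 1, 1.21 in library 2, 0.937 in library 3, 1.41 in library 10, and 1.04 in library 11. From 12 to 48 genes stood at 1 step, 4 to 12 at 2 steps, and 3 to 7 at 3 steps, and 100 TPM equalled 70.7 to 134 steps. The genes at the step had no common annotated length (medians of 696 to 761 bases, extremes of 174 and 2146), so the steps were not turned into read counts, and the depth behind each value is unknown.

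**Figure D1:**
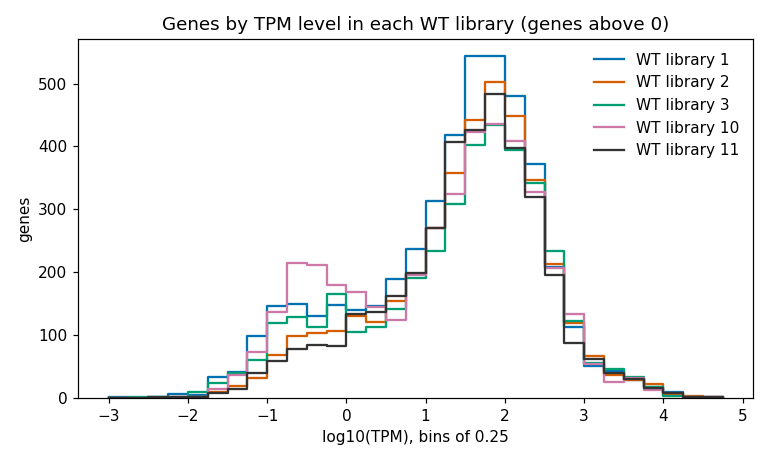
Number of genes above 0 (vertical axis) by log10(TPM) in bins of 0.25 (horizontal axis), with 1 line for each WT library. All 5 lines peak above 10 TPM, where 1379 to 1820 genes lay between 10 and 100 TPM, and all carry a tail of values below 1 TPM.

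The RNA of the 4 sorted surface proteins ranged from present in every library to present in 1. Since the cells were gated on these proteins, the values check the label and are no finding. Flt3 was the steadiest of the 4, at 40.6, 93.9, 282, 142, and 144 TPM, and Il7r was at 179, 128, 184, 9.3, and 1.07 TPM. Il7r was above 100 TPM in libraries 1, 2, and 3 and below 10 TPM in libraries 10 and 11, where 1.07 TPM is about the step of that library. Kit, the stem cell factor receptor that the gate takes at a low level, was at 118, 0, 5.18, 0.201, and 10.1 TPM. Ly6a, which encodes Sca1, was listed at 0 in 4 libraries and at 215 TPM in library 10. The ranges of Flt3 and Il7r overlapped, and their order by library was not constant, with Il7r higher in libraries 1 and 2 and Flt3 higher in 3, 10, and 11.

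Of 15 lymphoid priming genes in the table, 8 were at 1 TPM or more in all 5 libraries and 7 in 1 to 4. The 8 are 53.3% of the list, against 3.72% of all genes, and none of the 15 was under 1 TPM throughout. The summed level of the 15 was 6124 to 10974 TPM, and Dntt was the highest of them in each library. Cd93, a receptor of early progenitors, was at 178, 219, 51.3, 445, and 86.2 TPM, and Cd27, a TNF receptor family member that rises as progenitors lose stem cell potential, was at 266, 0, 340.2, 76, and 221 TPM. Cd93 was thus measured in every mouse, whereas Cd27 was listed at 0 in library 2.

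The recombination program was uneven. Next to Dntt, the RAG1 recombinase gene was at 61.1, 16.7, 49.4, 0.106, and 0 TPM, and Rag2, which encodes its partner, was at 1.89, 0, 0, 0, and 29.1 TPM. Rag1 was above 10 TPM in libraries 1, 2, and 3, the libraries in which Il7r was above 100 TPM, and at or near 0 in libraries 10 and 11. Hmgb1, a DNA-bending cofactor of the recombinase, was at 459.8, 457, 394, 221, and 311 TPM. Of 12 recombination and end-joining genes, 3 were at 1 TPM or more in all 5 libraries (25%, against 3.72% of all genes). Another 6 were in some, and 3 were at 0 in all 5. Those 3 were Nhej1, Prkdc, and Xrcc4, which act when the broken ends are joined. The share at 0 in all 5 libraries was 68.6% over all genes, so zeros in this list were not unusual. Rag1 lies on the same strand within the annotated span of B230118H07Rik, so its reads could be split between the 2 genes.

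Dntt is shown with its promoter because it was the highest lymphoid gene. The sequence is from RefSeq on GRCm38.p6, runs from 5′ to 3′ on the plus strand, covers chr19:41029125-41029274, and ends at the base before the annotated start. Capitals mark a match to CANNTG, searched on both strands at once because the motif reads alike on each, which is the E-box bound by E proteins such as the product of Tcf3.
Dntt promoter: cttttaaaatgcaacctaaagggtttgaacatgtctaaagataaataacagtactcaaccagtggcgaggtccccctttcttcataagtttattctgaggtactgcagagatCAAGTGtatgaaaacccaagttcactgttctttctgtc
The window held 1 match, and 44.2% of the 18203 promoters of table genes held at least 1 in a window of the same length of 150 bases. The 250 bases before the start held 2 CG pairs and no TATAAA in the stretch from 40 to 15 bases before the start.

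Transcription factors of the lymphoid program were low beside Dntt. Of 42 factors, 14 were at 1 TPM or more in all 5 libraries, 16 in some, and 12 in none. The 14 are 33.3% of the list, against 3.72% of all genes. Irf8, which directs dendritic and early lymphoid fates, was the highest at 562, 791, 1129, 300.5, and 691 TPM. Bcl11a, needed for lymphoid progenitors, was at 252, 417, 248, 119.7, and 308 TPM. These 2 factors were above 100 TPM in every mouse, and their ranges overlapped. The next by median were Runx3 at 89.6, 55.9, 16.9, 173, and 86.7 TPM and Sox4, an HMG-box factor of early B cell progenitors, at 90.9, 133, 33.6, 44.4, and 75 TPM. Ikzf1, which encodes Ikaros, was at 109, 8.66, 96.7, 43.6, and 72.7 TPM. Mef2c was lower but the most even of the factors named here, at 34.3, 33.4, 37.7, 56.9, and 31.7 TPM, with an SD of 0.33 on the log2 scale. The E protein gene Tcf3 was at 12.3, 12, 0.0517, 19, and 12.3 TPM, with library 3 alone below 1 TPM.

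The B cell factor Ebf1 was measured in all 5 libraries, at 40.3, 8.5, 56.2, 32.5, and 3.91 TPM. Pax5, which acts after Ebf1 in B cell commitment, was listed above 0 in libraries 1 and 2 alone, at 46.6, 7.89, 0, 0, and 0 TPM. Of factors of T cell commitment, Tcf7, Lef1, Bcl11b, Tox, and Tox2 were listed at 0 in all 5 libraries, as were Id1, Id3, Gfi1, Irf4, Ikzf2, and Ikzf3. Gata3 was listed in library 2 alone, at 37.9 TPM. A listing at 0 does not show that a gene was silent, since genes that every cell uses, among them Pfn1, Eno1, Psma5, and Sf3a1, were also listed at 0 in all 5 libraries.

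The highest genes of WT CLPs encoded the ribosome. Of 20 genes with the highest median, 16 were cytosolic ribosomal protein genes by symbol, as were 61 of the 100 highest. Among the 87 such genes in the table, 79 (90.8%) were at 1 TPM or more in all 5 libraries, against 3.72% of all genes. They summed to 36.6% ± 2.88 of the TPM (SD, n = 5; range, 33.6% to 40.9%). Over these 87 genes the median of the median TPM was 3049.9, against 0 over all genes of the table. Rps29 (chromosome 12 from 69157722 to 69159186, GRCm38) was first at 35272, 31711, 22744, 34470.3, and 36444 TPM. Among ribosomal protein genes Rps21 followed at 14409.5, 14196, 18082, 17386, and 16388 TPM, and Rplp1, a protein of the ribosomal stalk, at 14704, 12839.8, 13793, 24869.6, and 18221 TPM. Each of these 3 genes was at 12839.8 TPM or more in every library, as the plot of the 20 highest genes shows.

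Outside the ribosome, Hsp90ab1, the constitutive HSP90 chaperone, was at 9586, 8355, 6016, 7843, and 8409 TPM. Elongation factor Eef1a1 was at 6029, 7191, 7092, 5267, and 4615 TPM, and the tubulin gene Tuba1b at 4413, 5702, 7598, 4431, and 5816 TPM. The median ranks were 15 for Hsp90ab1, 21 for Eef1a1, 25 for Tuba1b, and 30 for Dntt. The ranges of Eef1a1, Tuba1b, and Dntt overlapped, so their order by median is within the spread between mice.

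**Figure D2:**
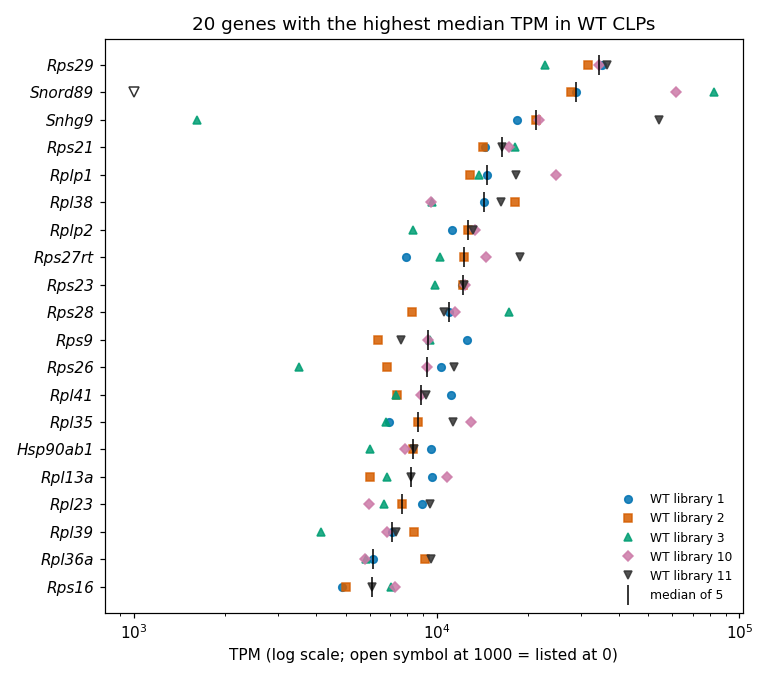
TPM on a log scale (horizontal axis) of the 20 genes with the highest median (rows), with 1 symbol for each WT library and a bar at the median. Rps29 lies at 22744 to 36444 TPM in all 5 libraries, whereas Snord89 is listed at 0 in library 11, drawn as an open symbol, and at 82369.6 TPM in library 3.

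Ribosomal protein mRNAs of mammals typically begin with a C followed by a run of pyrimidines, the terminal oligopyrimidine tract through which their translation is adjusted to nutrients. A run was counted where a C within 5 bases of the annotated start opened at least 6 C or T in a row. C or T could also stand before that C, so a counted run can be the later part of a longer one. Such a run was present in 27 of 65 ribosomal protein genes with a RefSeq promoter (41.5%) and in 6 of 25 other genes among the 100 highest (24.0%). It was present in 14.3% of 735 genes at 1 TPM or more in all 5 libraries and in 10.3% of all 18203 promoters. Several starts from the highest genes are shown, most of them with the run. Rps28, Rpl41, Rpl23, Rpl39, and Rpl36a, also among the 20 highest by median, had no run and are not shown. Each sequence runs from 30 bases before the annotated start to 20 bases after it, 5′ to 3′ on the gene's strand, from RefSeq on GRCm38.p6. Capitals mark the counted run. In Rpl38, Rplp2, Rps9, and Rpl35, C or T also stands directly before the capitals.
Rps21, chr2:180257349-180257398, plus strand: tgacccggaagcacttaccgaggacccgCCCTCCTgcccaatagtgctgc
Rpl38, chr11:114668550-114668599, plus strand: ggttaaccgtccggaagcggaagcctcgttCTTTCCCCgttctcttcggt
Rplp2, chr7:141447621-141447670, plus strand: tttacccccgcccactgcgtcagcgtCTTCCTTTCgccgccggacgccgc
Rps9, chr7:3704011-3704060, plus strand: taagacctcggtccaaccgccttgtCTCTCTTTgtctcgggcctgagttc
Rpl35, chr2:39005112-39005161, minus strand: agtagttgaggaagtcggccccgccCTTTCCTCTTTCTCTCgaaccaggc
Rps16, chr7:28350659-28350708, plus strand: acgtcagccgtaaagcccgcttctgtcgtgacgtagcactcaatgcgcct
Rps16 is given as a highest gene without such a run in this window. The same promoters differed in CG pairs, with a median of 17 in the 250 bases before the start of ribosomal protein genes, 18 for genes at 1 TPM or more in all 5 libraries, and 5 for the 11957 genes at 0 in all 5. TATAAA from 40 to 15 bases before the start was found in 1.54% of ribosomal protein genes, 1.90% of genes at 1 TPM in all 5 libraries, 3.51% of those at 0 in all 5, and 2.66% of all.

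A few ribosomal genes went against the rest. Rpl26 and Rps27 were listed at 0 in all 5 libraries. Rps27rt, a near-identical copy of Rps27 on chromosome 9, was instead among the highest, at 7933, 12269.6, 10286, 14599, and 18885 TPM, so that the split of reads between the copies is uncertain. The processed pseudogenes Gm15772, at 5727, 3223, 5998, 4776, and 3288 TPM, and Gm12191, at 2862, 6477, 3982, 4305, and 5199 TPM, also ranked among the 40 highest genes by median. Rps2 was at 798, 34.3, 134, 109.7, and 33.4 TPM, a median of 109.7 TPM.

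Short noncoding genes also ranked at the top. Snord89, a C/D box small nucleolar RNA of 110 bases that lies within Gm15832 on the same strand, was at 28781, 27689, 82369.6, 61536, and 0 TPM. It was the second gene by median and yet at 0 in library 11. Of 110 small nucleolar RNA genes, 108 were at 0 in all 5 libraries, beside 68.6% of all genes. The 2 exceptions were Snord89 and Snord87. Snhg9, a small nucleolar RNA host, was at 18372, 21201, 1611, 21749.9, and 54358 TPM. Its 435 annotated bases lie within the span of Rps2 on the other strand, and since the use of strand in the authors' counting is not given in the sources used here, reads of Snhg9 and Rps2 cannot be told apart. By annotated class, protein-coding genes held 89.4% ± 1.85 of the TPM (SD, n = 5), small nucleolar RNAs 4.12% ± 3.17, antisense genes including Snhg9 2.59% ± 1.85, and processed pseudogenes 1.58% ± 0.333.

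The order changed when TPM were multiplied by annotated transcript length. The lengths behind the deposited TPM are not known, so this does not restore the values before division. A 3′ library gives reads at the end of a molecule whatever its length, so TPM weights short transcripts upward. The median annotated transcript length was 629 bases for the 100 highest genes and 1365.5 bases for all matched genes. When TPM were multiplied by that length and rescaled to a sum of 1000000, Rps29 stayed first, Dntt moved from rank 30 to 3, Snord89 from rank 2 to 34, and Snhg9 from rank 3 to 25. D10Wsu102e, at a median of 84.5 TPM, moved from rank 981 to 2, so single ranks on this scale depend on the annotated length. Ly6d changed little, from rank 127 to 157. By this scale Dntt was at a median of 11676 and the ribosomal protein genes summed to a median of 243544 of 1000000.

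The measured agreement between mice depended on the set of genes compared. Across the 7228 genes at 1 TPM or more somewhere, the Pearson correlation of log2(TPM + 1) was 0.34 to 0.39 over the 10 pairs of libraries, and Spearman's rho was 0.27 to 0.35. Across the 928 genes shared by all 5 libraries, Pearson's r was 0.64 to 0.73 and rho 0.66 to 0.73. These are descriptions across genes, which are not independent replicates, and the low-level zeros enter the first pair of ranges. The 928 genes were chosen for presence in all 5 libraries, which leaves such zeros out. Over all genes of the table the median Pearson r was 0.58. No pair of libraries stood apart.

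The spread between mice fell steeply at the highest levels. The median SD of log2(TPM + 1) was 0.45 for 129 genes with a median of 1000 TPM or more, 1.90 for 738 genes from 100 to 1000 TPM, 2.74 for 1253 genes from 10 to 100 TPM, and 2.56 for 687 genes from 1 to 10 TPM. An SD of 0.45 equals a factor of 1.36. All but 1 of the 129 genes were above 0 in every library, and Snord89 was the exception. From 100 to 1000 TPM, 520 of 738 genes (70.5%) were above 0 in every library, and from 10 to 100 TPM 511 of 1253 (40.8%). The genes from 100 to 1000 TPM formed 2 bands, with a median SD of 1.00 for the 462 at 1 TPM or more in all 5 libraries and 3.78 for the 276 below 1 TPM in at least 1, since a value near 0 itself widens the SD.

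**Figure D3:**
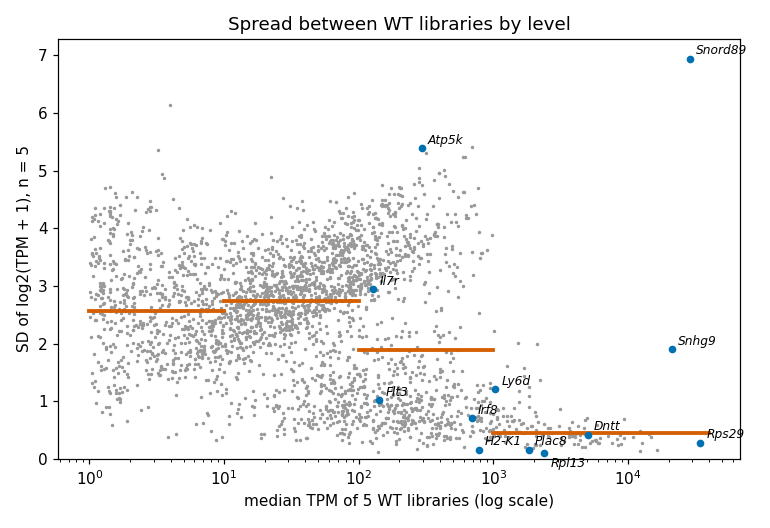
SD of log2(TPM + 1) over the 5 WT libraries (vertical axis) against the median TPM on a log scale (horizontal axis), with 1 point per gene at a median of 1 TPM or more and bars at the median SD of each class of level. The bars fall from 2.74 at 10 to 100 TPM to 0.45 at 1000 TPM or more, and Plac8 and H2-K1 lie far below the bars of their classes.

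Some genes outside the ribosome were among the most even. Among 867 genes with a median of at least 100 TPM, the 10 smallest SDs belonged to Rpl13, Ppp1r18, Rps23, Plac8, Rps21, H2-K1, 1110004F10Rik, Swi5, Ptma, and Rps14, of which 4 encode ribosomal proteins. Plac8, a small cysteine-rich protein abundant in myeloid and lymphoid progenitors, was at 1647, 1835, 1576, 2078, and 1856 TPM. H2-K1, a classical MHC class I heavy chain, was at 683, 781, 821, 832, and 651 TPM. The highest mouse exceeded the lowest 1.32-fold for Plac8 and 1.28-fold for H2-K1. Ppp1r18, a regulator of protein phosphatase 1, was at 139, 147, 119, 138, and 139 TPM, the lowest level of the 10. Swi5, a recombination repair protein, was at 1616, 2030.4, 2324, 1961, and 1926 TPM, and Ptma, the acidic chromatin protein prothymosin alpha, at 4760.1, 4540.5, 5309.8, 4430.4, and 3579 TPM. Rpl13 was the most even of the 867, at 2342, 2121, 2492, 2492, and 2382 TPM, with an SD of 0.10 on the log2 scale. Rps23 had an SD of 0.14, with library 3 at 9847 TPM and the others from 12116 to 12391 TPM, while 1110004F10Rik was between 218 and 293 TPM and Rps14 between 4112 and 5750.5 TPM.

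The 10 largest SDs in the same class of level all came from genes at 0 in 1 or 2 libraries. They were Snord89, 5730408K05Rik, Atp5k, Hilpda, Sdhc, Tk1, Cops9, Psme2, Naa10, and Lsm12. Atp5k, a subunit of ATP synthase, was at 295, 0, 19.5, 11702, and 2264 TPM. Sdhc, a membrane anchor of succinate dehydrogenase, was at 599, 0, 833, 869, and 0 TPM. The zeros of these 2 mitochondrial genes fell in library 2, and for Sdhc also in library 11. The S phase enzyme thymidine kinase 1, from Tk1, was at 786, 887, 0, 616, and 0 TPM, and the proteasome activator subunit Psme2 was at 693, 432, 586, 0, and 0 TPM. Hilpda, a lipid droplet protein induced by hypoxia, was at 851, 0, 1651, 314, and 0 TPM, and Naa10, the catalytic subunit of an N-terminal acetyltransferase, was at 0, 0, 482, 765, and 395 TPM. No library held all of these zeros. 5730408K05Rik was at 0 in libraries 1 and 11, Cops9, a subunit of the COP9 signalosome, in libraries 2 and 3, and Lsm12 in libraries 2 and 11. Outside their zeros these 3 genes were between 283 and 1258 TPM.

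Genes listed in 1 mouse alone made up 2.97% of the mean TPM. There were 2535 of them, 10.2% of the table. The 5 highest were listed in libraries 2 and 3. In library 2 they were Snord87 at 5633 TPM, the G protein subunit Gng5 at 732 TPM, and the class II MHC chain H2-Aa at 727 TPM. In library 3 they were the SLAM family receptor Slamf6 at 787 TPM and the mitochondrial enzyme gene Clybl at 731 TPM. Gng5-ps, a pseudogene of Gng5 by symbol, had a median of 365 TPM, so the split of reads between them is uncertain.

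Markers of the other cells a bone marrow sort could hold were read against the same tables. All 18 erythroid and megakaryocyte markers, among them the globin genes, Gata1, and Pf4, were at 0 in all 5 libraries. Of all genes in the table, 68.6% were at 0 throughout. Of 20 T lineage markers, 15 were under 1 TPM in every library, close to the share of all genes (17744 of 24972). None reached 1 TPM in all 5, against 3.72% of all genes, and the list summed to 13.2 to 295 TPM. The genes of the CD3 complex were at or near 0, with Cd3e and Cd3g at 0 throughout and Cd3d at 0.736 TPM in library 1 alone. The Src family kinase gene Lck was the highest T lineage marker by median, at 164, 0, 10, 108, and 1.15 TPM, and Cd4 was at 0, 106, 0, 187, and 0 TPM. Of 16 NK and innate lymphoid markers, 12 were under 1 TPM in every library, again close to the share of all genes. Il18r1 was at 148, 86.8, 20.5, 108, and 0 TPM, and the granule gene Nkg7 reached 1122 TPM in library 10 and 2.24 TPM in library 1 against 0 in the others.

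Of 19 B lineage markers in the table, 2 were at 1 TPM or more in all 5 libraries, 13 in some, and 4 in none. The 2 are 10.5% of the list, against 3.72% of all genes, and the list summed to 310 to 2022 TPM. The 2 constant genes were Ebf1 and Blnk, the adaptor of the pre-B cell receptor, which was at 112, 122, 969, 1.65, and 153 TPM. Vpreb1, part of the surrogate light chain, was at 0.745, 396, 841, 540.4, and 1.04 TPM. Vpreb1 thus stood at 396 TPM or more in 3 libraries and at 1 step in the other 2. Cd24a was at 102, 0, 123, 204, and 0.367 TPM. Of genes of committed B cells, Cd79a was at 246 TPM in library 1 alone and Cd79b was at 8.94, 305, 0, 0, and 0 TPM. Ms4a1 and Cd22 were at 0 in every library.

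Of 20 myeloid markers, 1 was at 1 TPM or more in all 5 libraries, 8 in some, and 11 in none. This is 5% of the list, close to the 3.72% of all genes, and the sum was 459 to 2475 TPM. The constant gene was Csf2ra, a chain of the GM-CSF receptor, at 1.24 to 49.9 TPM. The neutrophil genes S100a8, at 1803, 0, 0, 0, and 452 TPM, and Ngp, at 394, 0, 0, 0, and 467 TPM, were both above 0 in libraries 1 and 11 alone. S100a9, which pairs with S100a8 in calprotectin, was at 177, 0, 629.9, 67.9, and 871 TPM, so it was also high in library 3, where S100a8 was at 0. Among granule genes of early myeloid cells, Mpo was at 85.6, 175, 0.312, 54.7, and 144 TPM, and Ctsg was at 594 TPM in library 10 and at or below about 1 step elsewhere. Elane, Lyz2, Itgam, and Csf3r were at 0 in all 5 libraries. Csf1r, the receptor for M-CSF, was at 0.174, 168, 0.215, 156, and 134 TPM. The part of other cells in these values was not tested.

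Of 14 dendritic cell genes, 3 (21.4%) were at 1 TPM or more in all 5 libraries, against 3.72% of all genes. These 3 were Irf8, Bst2, and Siglech. Bst2, an interferon-induced tetherin found on plasmacytoid dendritic cells and other cells, was at 483, 47.1, 1411, 723, and 462 TPM. Siglech, a lectin of plasmacytoid dendritic cells, was at 70.7, 3.78, 127, 201, and 17.7 TPM. Markers of conventional dendritic cells, Xcr1, Clec9a, and Batf3, were at 0 throughout. The mast cell protease Cpa3 was at 307 TPM in library 3 alone, and the other 6 mast cell and basophil markers were at 0. Of 7 plasma cell markers and 10 of stroma and endothelium, none was at 1 TPM or more in all 5 libraries, beside 3.72% of all genes.

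Of 20 stem and multipotent progenitor genes, 2 (10.0%) were at 1 TPM or more in all 5 libraries, against 3.72% of all genes. These 2 were Cd34, at 294, 115, 398, 295, and 211 TPM, and Ifitm3, at 575, 103, 5.62, 621, and 313 TPM. Ifitm1, of the same interferon-induced family, was at 0.745, 0, 0, 588, and 813 TPM, high in libraries 10 and 11 and at or below 1 step in the other 3. Mecom, Procr, Slamf1, and Hoxa10, known from stem cells, were at 0 in every library.

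**Figure D4:**
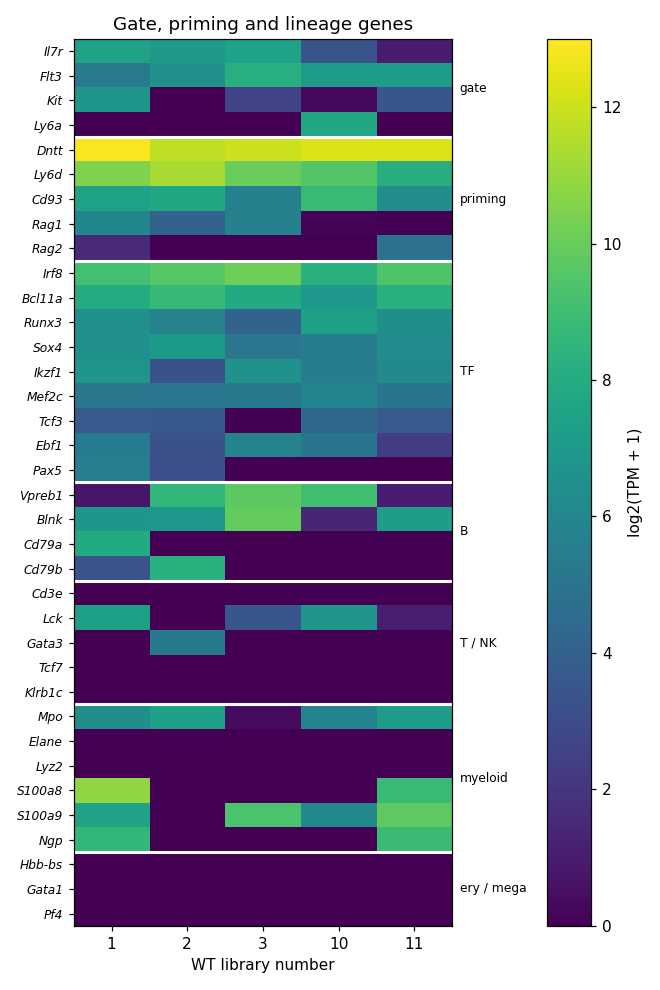
Colour scale of log2(TPM + 1) for genes of the sort gate, lymphoid priming, transcription factors (TF), and the B, T and NK, myeloid, and erythroid and megakaryocyte (ery / mega) lineages (rows) in the 5 WT libraries (columns). Dntt is bright in every column, at 3482 to 7459 TPM, while S100a8 and Ngp are lit in libraries 1 and 11 alone and Hbb-bs, Gata1, and Pf4 in none.

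Of 28 cytokine receptor genes, 5 (17.9%) were at 1 TPM or more in all 5 libraries, against 3.72% of all genes. These were Il17ra, Flt3, Il7r, Il21r, and Crlf2. Il17ra, a chain of the IL-17 receptors, had the highest median, at 188, 157, 184, 323, and 63.7 TPM. Il21r, the receptor for IL-21, was at 223, 15.2, 125, 21.6, and 295 TPM, with libraries 2 and 10 lower than the other 3. Crlf2, which pairs with CD127 in the receptor for TSLP, was at 96.3, 4.49, 65, 49.1, and 52 TPM. Il2rg, the common gamma chain that CD127 needs for IL-7 signaling, was listed in libraries 1 and 10 alone, at 628, 0, 0, 409.7, and 0 TPM.

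Downstream kinases and targets were likewise mixed. Of 17 JAK-STAT genes, 2 (11.8%) were at 1 TPM or more in all 5 libraries, against 3.72% of all genes. Pim1, a kinase gene induced by STAT5, was at 609, 757, 643, 244, and 999 TPM, and Jak1 was at 132, 93.2, 15.1, 23.1, and 54.8 TPM. Of 20 homing and adhesion genes 3 were constant (15.0%, against the same 3.72%). Cd47, the inhibitory ligand of phagocytes, was the steadiest of these, at 379.5, 205, 475, 163, and 205 TPM.

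Of 26 Notch pathway genes, 1 was at 1 TPM or more in all 5 libraries, 14 in some, and 11 in none. The constant gene made up 3.85% of the list, close to the 3.72% of all genes. The genes had a sum of 446 to 1325 TPM. The constant gene was Aph1a, a subunit of gamma-secretase, which releases the Notch intracellular domain, at 96.7, 85.9, 128, 165, and 208 TPM. Psenen, another subunit, was at 369.6, 835, 0, 216, and 392 TPM. Of the receptors, Notch1 was at 18.5, 25.7, 13.8, 0, and 8.83 TPM and Notch2 at 25.2, 0, 0, 11.9, and 1.99 TPM, while Notch3 and Notch4 were at 0. Rbpj, the DNA-binding partner of Notch, was at 0.0758, 0, 37.1, 16.7, and 0 TPM. The target genes Hes1 and Deptor were at 17.3, 2.73, 27.9, 32.2, and 0 TPM and at 0, 0, 0, 45.5, and 16.1 TPM, and Dtx1 and Hey1 were listed at 0. Of all genes with a median from 10 to 100 TPM, the range of Hes1 and Notch1, 742 of 1253 were listed at 0 in 1 or more libraries.

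Of 37 cell cycle genes, 19 (51.4%) were at 1 TPM or more in all 5 libraries, against 3.72% of all genes, and their sum was 13947 to 18693 TPM. Stmn1, a microtubule-destabilizing protein, was at 2507, 3201, 1965, 3408, and 3475 TPM. Birc5, the mitotic protein survivin, was at 741, 963, 2027, 638, and 749 TPM, and Top2a, the topoisomerase of dividing cells, at 497, 899, 486, 553, and 614 TPM. Mki67 was lower, at 76.1, 156, 34, 84.9, and 37.3 TPM. The replication helicase gene Mcm7 was at 635, 717, 849, 739.7, and 147 TPM, with library 11 lowest. Pcna, the sliding clamp of replication, was at 171, 0.54, 204, 57.1, and 462 TPM, so that even this gene was below 1 TPM in 1 mouse.

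Genes of basic cell functions differed in how constant they were. For nuclear genes of oxidative phosphorylation 39 of 85 were at 1 TPM or more in all 5 libraries, for actin and thymosin genes 20 of 31, for translation elongation 9 of 11, for splicing 30 of 52, for glycolysis 3 of 23, and for mitochondrial ribosomal proteins 2 of 78. The 2 of 78 are 2.56%, near the 3.72% of all genes, and the other lists just named were above that share. The immediate early genes, which rise when cells are stressed during isolation, summed to 50.5 to 399 TPM. None of the 20 was constant, beside 3.72% of all genes. Their highest median was 39.8 TPM, for Btg2.

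Reference genes differed widely in how constant they were. Of 12, 7 (58.3%) were at 1 TPM or more in all 5 libraries, against 3.72% of all genes. Actb was at 2713, 3644, 3319, 1608, and 2641 TPM, Ppia at 1572, 1417, 2023, 736, and 732 TPM, and Ywhaz at 209, 268, 188, 176, and 171 TPM. Ywhaz had the smallest spread of the reference genes, with an SD of 0.26 on the log2 scale, next to 0.28 for Eef1a1. Gapdh, by contrast, was at 43, 1.12, 0, 11, and 0 TPM and Hprt at 320.3, 0.43, 0.336, 13.4, and 0 TPM. Gapdh has many near-identical pseudogene copies, so its reads may be split or dropped in counting.

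Antigen presentation genes divided by class. Of 13 MHC class I genes 8 were at 1 TPM or more in all 5 libraries, with a sum of 3194 to 4030 TPM, and B2m, the class I light chain, was at 739, 1102, 621, 1245, and 1792 TPM. Of 9 class II genes 2 were (22.2%, against 61.5% for class I and 3.72% of all genes). H2-DMa, which loads peptides onto class II, was one of them, at 608, 224, 513, 562, and 79.9 TPM, whereas Cd74, the invariant chain, was at 0.73, 393, 0.895, 303, and 0 TPM. Thus Cd74 was at 303 TPM or more in libraries 2 and 10 and below 1 TPM in the other 3.

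**Figure D5:**
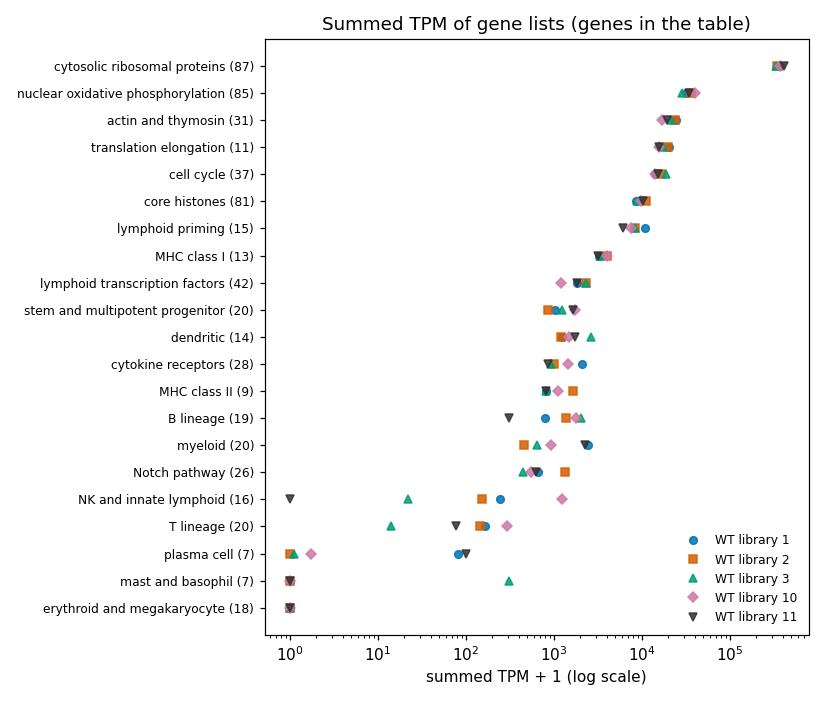
Summed TPM + 1 of 21 gene lists (rows, with the number of genes in the table in parentheses) on a log scale (horizontal axis), with 1 symbol for each WT library. Ribosomal proteins lie at 335619 to 409071 TPM, cell cycle genes at 13947 to 18693 TPM, and erythroid and megakaryocyte genes at 0 in all 5 libraries.

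The nuclear RNA Malat1 was at 2075, 2668, 2111, 1483, and 1389.9 TPM and thus present in every mouse. Xist, transcribed from the inactive X chromosome of females, was at 0.261, 0, 0, 187, and 172 TPM. The Y-linked genes Eif2s3y and Ddx3y were at 25.5, 0, 29.1, 0, and 0 TPM and at 0, 29.6, 7.11, 0, and 0 TPM. Xist was thus above 100 TPM in libraries 10 and 11, in which both Y-linked genes were at 0, and 1 or both Y-linked genes were above 0 in libraries 1, 2, and 3. The labels used here state no sex. Values that set libraries 10 and 11 apart from 1, 2, and 3, as in Il7r, Rag1, Psme2, and Ifitm1, go with these genes and with the library numbers, and the part of either in them was not tested.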

How the data were processed

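CLPs were sorted per mouse from adult bone marrow, RNA was extracted with a PicoPure kit, and strand-specific QuantSeq 3′ FWD libraries were prepared in 1 batch. Trimming with FASTQ Toolkit and STAR alignment against mm10, the UCSC name of GRCm38, were done by the authors. The deposited values are TPM per gene. The tool, annotation, and gene lengths behind the TPM are not given in the sources used here, nor is the use of strand in counting. Each library sums to 1000000, no scaling between libraries was applied, and no counts or depths were used, so precision was judged from the spread over 5 mice alone. The WT columns occur in 2 tables with 0 differences.

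Levels were described by median, rank, and the SD of log2(TPM + 1), with 1 TPM or more called present and no filter on genes. No test between groups was run, since 1 group was described, and libraries that stood apart were found with the limit of Dixon's test. Gene lists and members were chosen with earlier results of these data known. Named genes were members of the sort gate, lymphoid priming, transcription factor, lineage, Notch, cytokine receptor, and reference lists, the 20 highest by median, the 10 smallest and 10 largest SDs at a median of 100 TPM or more, and the 5 highest genes above 0 in 1 library alone. In long lists, the highest members and the defining markers were named, and some genes are not reported here, although list counts and sums include them. Genes of other lists, the promoter comparison, and genes overlapping a named gene were chosen after their values were seen.

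Coordinates, classes, and transcript lengths came from GENCODE M21 on GRCm38, matched by symbol for 24493 of 24972 genes (98.1%), and 18203 genes had a RefSeq promoter. Alternatives were thresholds above 0 and at 10 TPM, pseudocounts of 0.1 and 10, median-ratio scaling, quantile normalization, TPM multiplied by transcript length, lists by mean, other sets of genes, and leaving out each library. Calculations used Python 3.11.15 with pandas 2.3.3 and numpy 2.4.6 and were tested on simulated data.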

Additional observations from a re-analysis of the deposited data

Results flagged for a closer look

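A library was flagged where its gap to the nearest other library, divided by the range of all 5 on the log2(TPM + 1) scale, exceeded 0.71, the limit of Dixon's test for 5 values. Chance flags about 1 in 20 such groups. Flagged were 19 of 108 genes and 2 of 41 lists, 21 in all, and none of 7 library measures. Of the 19 genes, 9 were above 0 in 1 library alone, so that any such gene is flagged whatever its level. The genes were partly chosen for a large SD or for being listed in 1 library alone, so the rate of 1 in 20 is no reference for their count. Flags fell in library 1 for 1 gene, in library 2 for 6, in library 3 for 7, in library 10 for 3, and in library 11 for 2.

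The genes listed in 1 library alone were Cd79a at 246 TPM in library 1, Gata3 at 37.9, Snord87 at 5633, Gng5 at 732, and H2-Aa at 727 TPM in library 2, Slamf6 at 787, Clybl at 731, and Cpa3 at 307 TPM in library 3, and Ly6a at 215 TPM in library 10. Cpa3 alone made up the mast cell and basophil list, which was flagged with the same 307 TPM. Nkg7, at 1122 TPM, and Ctsg, at 594 TPM, were high in library 10 beside values of 2.24 TPM or less elsewhere.

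Of the low values, Snord89 at 0 in library 11 also set the small nucleolar RNA list to 0 there, against 28780.6 to 82369.6 TPM in the other 4 libraries. Mcm7, at 147 TPM, was low in library 11 as well. In library 3, Tcf3 was at 0.0517 TPM, Mpo at 0.312 TPM, Psenen at 0, and Rps23 at 9847 TPM, and in library 2 Cd27 was at 0 and Crlf2 at 4.49 TPM. The Rps23 value lies close to the others in size, and its flag comes from the small spread of the other 4 libraries.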

How the results depend on the processing

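Of 38 alternatives over 16 results, 25 left the value within a limit, or a count within 1.5 times. The limit was the SD between libraries, except for Pearson's r and the median SDs. For r it was the SD over the 10 pairs, and for the median SDs the SD of the 5 leave-out values, which is narrower than a spread between libraries. For some genes and lists the limit exceeded the value, so that staying within it does not show stability. It was 51.0 TPM for Kit at a median of 5.18 TPM, 96.2 TPM for Ly6a at a median of 0, and 947 TPM for the sum of myeloid genes. The number of genes present in all libraries was 928, and it was 1270 above 0, 693 at 10 TPM, and 915 after median-ratio scaling. The share of TPM in the 100 highest genes was 54.8%, and it was 42.7% without ribosomal protein genes and 39.6% with TPM multiplied by transcript length. The median Pearson r between libraries was 0.37, and it was 0.31 and 0.48 with pseudocounts of 0.1 and 10, 0.58 over all genes of the table, and 0.68 over genes present in all 5. The median SD from 10 to 100 TPM was 2.74, and it was 4.02 and 1.42 with pseudocounts of 0.1 and 10 and 2.68 after quantile normalization. From 100 to 1000 TPM it was 1.90, and 1.64 with a pseudocount of 10. With transcript length, the summed median of ribosomal protein genes moved from 367464 to 243544, of cell cycle genes from 15160.4 to 20132, and of lymphoid priming genes from 8256 to 16820.2. The cause was not tested beyond the change that each alternative makes. Leaving out each library left 66 of 80 values within these limits. The others were Pearson's r, at 0.32 to 0.33, and the median SD, at 3.03 to 3.08 from 10 to 100 TPM, 1.67 to 1.97 from 100 to 1000 TPM, and 0.44 to 0.47 at 1000 TPM or more. For the median of Il7r, leaving out a library gave 68.9 to 153 TPM, the lowest without library 1 or 3, and for Kit 2.69 to 7.65 TPM, the lowest without library 1 or 11. The median sum of myeloid genes was 923 TPM, and 783 to 1597 TPM without 1 library, the highest without library 2 or 3, with 1457 TPM without library 10. No paired analysis was possible because the library numbers are not shared between groups and 1 group was described. The unknown read depth limits what a TPM of 0 shows.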

Other observations

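Of 81 core histone genes, 8 were at 1 TPM or more in all 5 libraries, 23 in some, and 50 in none. The 8 are 9.88% of the list, against 3.72% of all genes, and the list summed to 8684 to 11195 TPM. The variant H2afy, macroH2A1, was at 2225, 1549.5, 2299.6, 2076, and 1782 TPM, and the replication-dependent Hist1h2ao was at 2073, 3312, 1953, 3655, and 1670.5 TPM, although 3′ libraries prime on poly(A) tails, which most replication-dependent histone mRNAs lack. Of 9 high mobility group genes 6 were constant (66.7%, against 3.72% of all genes). The nucleosome-binding Hmgn2 was the highest of them by median, at 853, 1527, 1303, 746, and 1941 TPM. Hmgb3, by contrast, was at 54.3, 1090.3, 1.75, 249, and 1076 TPM.

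Of 17 proteasome genes 5 were constant (29.4%, against 3.72% of all genes). Psma7, a subunit of the core, was at 2289.8, 1276, 1909, 746, and 1659 TPM, while the immunoproteasome subunit Psmb8 was at 482, 839, 513, 489, and 117 TPM. Of 66 heat shock and chaperonin genes 21 were constant (31.8%, against 3.72% of all genes), with a sum of 13474 to 19232 TPM. Laptm5, a lysosomal protein of hematopoietic cells, was at 325, 1317, 94.1, 455, and 531 TPM, and Cd52, a GPI-anchored lymphocyte protein, was at 1472, 647, 1054, 765, and 292 TPM. Of 1169 microRNA genes, 4 were at 1 TPM or more in some library and none in all 5, beside 3.72% of all genes.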
